A study of Mus musculus with 14 samples.

Results

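The mature oligodendrocyte myelin genes described here are Mbp, Mog, Mag, Mobp, Cnp, Cldn11, Mal, Opalin and Ermn, 9 of the 43346 genes in the count table. They were chosen by name as genes of the myelin sheath and not by a cut on their values, though with earlier results of these data known. All 9 were present in the table and all 9 passed the filter on low counts in every comparison. The study sequenced RNA from a cross-section of frozen brain holding hippocampal and cortical tissue, from female mice aged 23 months on a C57BL/6;SJL-Tg background. The NTG group held 4 non-transgenic littermates, and the APP/PS1 group held 5 double transgenic mice labelled APP/PS1 +/+, a model that accumulates amyloid in the brain. Another 5 APP/PS1 mice received CP2, a partial inhibitor of complex I of the mitochondrial respiratory chain, at 25 mg/kg/day in drinking water with PEG from 9 months of age. The labels call the NTG and APP/PS1 groups non-treated, while the treatment protocol gives them vehicle-containing water. NTG mice given CP2 are not analysed here, so an effect of CP2 could be examined in APP/PS1 mice only. Mice are called by the numbers of their libraries, 7 to 10 in NTG, 16 to 20 in APP/PS1 and 21 to 25 in CP2-treated APP/PS1 mice.

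Oligodendrocytes wrap axons of the central nervous system in many turns of membrane, from which the cytoplasm is squeezed out to give compact myelin. Myelin basic protein (Mbp) and Mobp hold the cytoplasmic faces of the membrane together, and Cldn11, a claudin, forms the tight junctions between neighbouring turns. Mal and Opalin are membrane proteins of the sheath, Mag faces the axon on the innermost turn, and Mog lies on the outermost surface. Cnp, a cyclic nucleotide phosphodiesterase, and Ermn, an actin-binding protein, act in the cytoplasm of the cell and its uncompacted channels. The mRNAs of these proteins are abundant in white matter, such as the corpus callosum between cortex and hippocampus.

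Myelin genes were deeply counted in every mouse. Together they took from 0.378% of all counts in mouse 16 to 0.604% in mouse 7, out of library totals between 70548781 and 106235625 counts. The fewest counts were those of Opalin, from 1532 to 3104 per mouse, and the most those of Mbp, from 167254 to 341235. Other oligodendrocyte genes were present as well, since 20 of 20 genes of compact myelin, loops and junctions and 24 of 24 further markers of mature oligodendrocytes were tested. Genes of Schwann cells, which make the myelin of peripheral nerve, were close to the detection limit, and their 4 genes summed to between 2.26 and 3.87 CPM (counts scaled to the library total) in all 14 mice.

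Levels of different genes were compared per transcript length, as the RPKM values that the authors computed (reads scaled to transcript length and library size). Mbp was the most abundant, with a median of 238 RPKM over the 14 mice and a range from 199.9 to 351. Mobp followed with a median of 109.8 RPKM and Cnp with 88.6 RPKM, and their ranges overlapped although Mobp exceeded Cnp in 14 of 14 mice. Cldn11 (62.7 RPKM) and Mal (55.3 RPKM) came next, and Cldn11 was the higher in 9 of 14 mice. Mal was the higher in NTG mice 7, 8, 9 and 10 and in APP/PS1 mouse 16, so that their order differed between groups. Mag (41.1 RPKM), Mog (28.3 RPKM) and Ermn (20.6 RPKM) each lay below the gene before them in 14 of 14 mice, although the ranges of neighbours overlapped. Opalin was the lowest at 9.40 RPKM and overlapped with no other member.

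**Figure D1:**
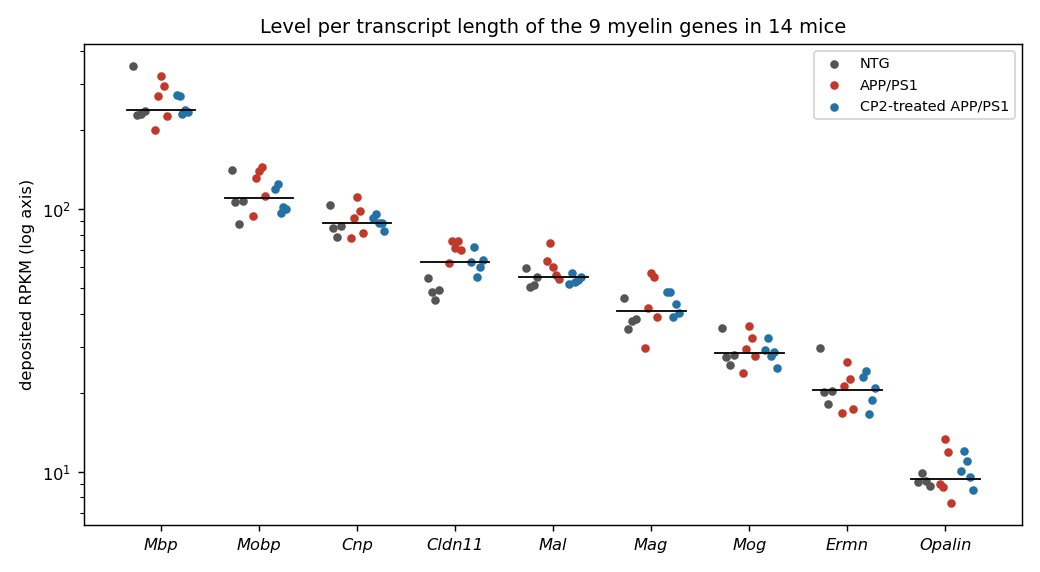
Deposited RPKM of the 9 myelin genes (log axis) in each of 14 mice, coloured by group, with the median over all mice as a line. Genes stand in order of their median, from Mbp at 238 RPKM to Opalin at 9.40 RPKM, and only Cldn11 shows NTG mice below all others.

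The stretches of DNA in front of 5 of the genes are shown. They were picked after their values were seen: Cnp, Mag and Mobp varied together, while Cldn11 differed between groups and Mal followed neither. A link between motifs and these patterns was not tested. The sequences are RefSeq promoters on GRCm38.p6, the assembly that mm10 names, and 8 of the 9 genes had an entry. Each line gives the 250 bases before the start of transcription, 5′ to 3′ on the strand of the gene. Capitals mark matches, in either orientation, to the SOX core motifs ACAAAG and ACAATG, the MYRF motifs CTGGCAC and CTGGTAC, and the E-boxes CAGCTG and CAGATG. SOX10 and MYRF are the transcription factors that switch on myelin genes in oligodendrocytes, and the E-box is a motif of basic helix-loop-helix factors such as OLIG2. Cldn11 lies on the plus strand at chr3:31149670-31149919, Mal on the minus strand at chr2:127656696-127656945, Cnp on the plus strand at chr11:100574689-100574938, Mag on the minus strand at chr7:30914864-30915113 (1 of 3 Mag entries) and Mobp on the plus strand at chr9:120149492-120149741.
Cldn11: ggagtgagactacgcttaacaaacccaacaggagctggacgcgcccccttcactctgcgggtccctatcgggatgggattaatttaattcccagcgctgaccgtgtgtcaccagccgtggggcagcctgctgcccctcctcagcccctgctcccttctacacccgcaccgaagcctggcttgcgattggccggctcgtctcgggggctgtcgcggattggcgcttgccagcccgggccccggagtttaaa
Mal: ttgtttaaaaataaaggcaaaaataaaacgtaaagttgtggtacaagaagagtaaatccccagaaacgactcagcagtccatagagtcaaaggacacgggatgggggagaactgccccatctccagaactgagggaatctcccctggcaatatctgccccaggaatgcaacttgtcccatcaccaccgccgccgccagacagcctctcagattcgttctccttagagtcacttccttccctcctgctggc
Cnp: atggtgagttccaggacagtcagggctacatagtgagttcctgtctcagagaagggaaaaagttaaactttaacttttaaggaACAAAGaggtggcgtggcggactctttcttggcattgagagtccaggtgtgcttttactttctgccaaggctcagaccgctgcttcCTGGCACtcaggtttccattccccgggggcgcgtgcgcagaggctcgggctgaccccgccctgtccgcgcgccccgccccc
Mag: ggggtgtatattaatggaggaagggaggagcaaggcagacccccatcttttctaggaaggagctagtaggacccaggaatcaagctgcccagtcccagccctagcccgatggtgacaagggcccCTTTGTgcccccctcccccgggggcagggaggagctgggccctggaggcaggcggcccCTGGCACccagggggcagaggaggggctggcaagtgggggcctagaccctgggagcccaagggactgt
Mobp: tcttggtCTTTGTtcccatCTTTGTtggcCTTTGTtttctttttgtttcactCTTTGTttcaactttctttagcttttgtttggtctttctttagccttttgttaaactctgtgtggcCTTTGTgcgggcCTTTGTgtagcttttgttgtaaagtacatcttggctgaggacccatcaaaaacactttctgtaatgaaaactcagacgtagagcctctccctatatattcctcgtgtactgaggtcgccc

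The 300-base windows of Cldn11 and Mal, which run 50 bases past the start of transcription, held 0 matches to these 6 motifs. The Mag entry that begins at chr7:30914272, which is not shown, also held 0. Opalin, which varied less closely with the other members, held 5 matches. Mog and Ermn, which varied with Cnp, Mag and Mobp, held 1 each. The motif ACAAAG was found in 4 of the 8 genes, Cnp, Mag, Mobp and Opalin, and in 18.7% of all 32851 promoters of the same length. In Mobp it stood 6 times, always in the reversed orientation, between positions -243 and -120 before the start. The motif CTGGCAC was found in 3 genes, Cnp, Mag and Opalin, against 5.01% of all promoters, and CTGGTAC in Mog alone among the 8, against 736 of the 32851 promoters. ACAATG was found in Ermn (12.6% of all promoters), and CAGCTG (16.3%) and CAGATG (17.2%) in Opalin. Among the windows of the 5 genes shown, those of Cldn11 and Mag held 66.3% and 65.0% G and C, above the upper quartile of all promoters of 61.7%. Those of Cnp, Mal and Mobp held 59.7%, 51.0% and 43.3%, and the median promoter 52.7%. A match describes the letters of the window and does not show that a factor binds there.

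The genes lie apart in the genome. In mm10 Cldn11 spans chr3:31149920-31164324 and Mal chr2:127633226-127656695, and the GENCODE annotation places no other gene over Cldn11, Mal, Mag or Opalin. The exons of Cnp share 154 bases with those of Dnajc7 on the opposite strand, and those of Ermn share 237 bases with Galnt5. Reads were counted on every gene they overlapped from a kit that does not mark strand, so reads of these shared bases cannot be told apart. Dnajc7 had at most 37.8% and Galnt5 at most 8.82% of the counts of its partner in any mouse.

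APP/PS1 mice were compared with NTG mice to ask whether the transgenes altered myelin transcripts. Cldn11, the tight junction claudin of myelin, was higher in APP/PS1 mice, and it was the only member with an adjusted p under 0.05 (edgeR). Its normalised read count was 126, 117, 107 and 111 CPM in NTG mice 7, 8, 9 and 10. It was 141, 163, 155, 170.0 and 163 CPM in APP/PS1 mice 16 to 20. The lowest APP/PS1 mouse thus stood above the highest NTG mouse, and the groups did not overlap. Means were 115 ± 8.44 CPM (SD, n = 4) and 158 ± 10.9 CPM (SD, n = 5), a log2 fold change of 0.46 (SE 0.071), or 38.0% higher with a 95% interval from 23.7 to 53.9%. The adjusted p was 0.00366 (edgeR quasi-likelihood test, Benjamini-Hochberg over 16417 genes). A call was made for 5.68% of all genes tested, 4.34% with a higher level in APP/PS1 mice, and 5.93% were higher without overlap between the groups. With 9 members, 1 call is near that background. In tissue RNA, fewer cells of a type and less RNA per cell cannot be told apart.

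The other 8 members did not pass the test in this comparison. Mbp was 3646, 2488, 2455 and 2401 CPM in NTG mice and 2031, 2605, 3148, 2965 and 2359 CPM in APP/PS1 mice. The spread within each group was larger than the difference between them, with a log2 fold change of -0.06 (SE 0.16) and a 95% interval from -25.3 to 23.2%. Mobp ranged from 726 to 1128 CPM in NTG and from 738 to 1122 CPM in APP/PS1 mice, and the log2 fold change was 0.11 (SE 0.15). Mal was 205, 182, 182 and 185 CPM in NTG mice and 213, 238, 196, 187 and 188 CPM in APP/PS1 mice. The ranges of Mal overlapped, and its log2 fold change was 0.12 (SE 0.075, adjusted p = 0.441, edgeR). Opalin spanned 19.5 to 23.5 CPM in NTG and 17.4 to 28.6 CPM in APP/PS1 mice, with a log2 fold change of 0.06 (SE 0.15).

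Of the 2 adhesion proteins at the inner and outer surface of the sheath, Mag differed widely between APP/PS1 mice. It was 231, 184, 195 and 188 CPM in NTG mice. It was 145, 197, 272, 269 and 197 CPM in APP/PS1 mice, so that this group held both the lowest and the highest value of Mag among the 9 mice. Its log2 fold change of 0.13 (SE 0.17) left a 95% interval from -16.5 to 42.9%. Mog spanned 55.3 to 74.3 CPM in NTG and 49.2 to 71.8 CPM in APP/PS1 mice, with a log2 fold change of -0.02 (SE 0.12). Among the cytoplasmic members, Cnp had nearly the same mean in both groups, 402 ± 45.0 CPM (SD, n = 4) in NTG and 399.8 ± 51.2 CPM (SD, n = 5) in APP/PS1 mice, with a 95% interval of the difference from -15.1 to 17.8%. Ermn spanned 84.0 to 133 CPM in NTG and 73.8 to 112 CPM in APP/PS1 mice, with a log2 fold change of -0.15 (SE 0.16) and a 95% interval from -29.3 to 15.3%. Over the 9 members the median log2 fold change was 0.06, beside -0.0042 over all genes tested, and 6 members lay above 0, beside 48.8% of all genes. Adjusted p of the 8 members other than Cldn11 ran from 0.441 to 0.998 (edgeR).

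**Figure D2:**
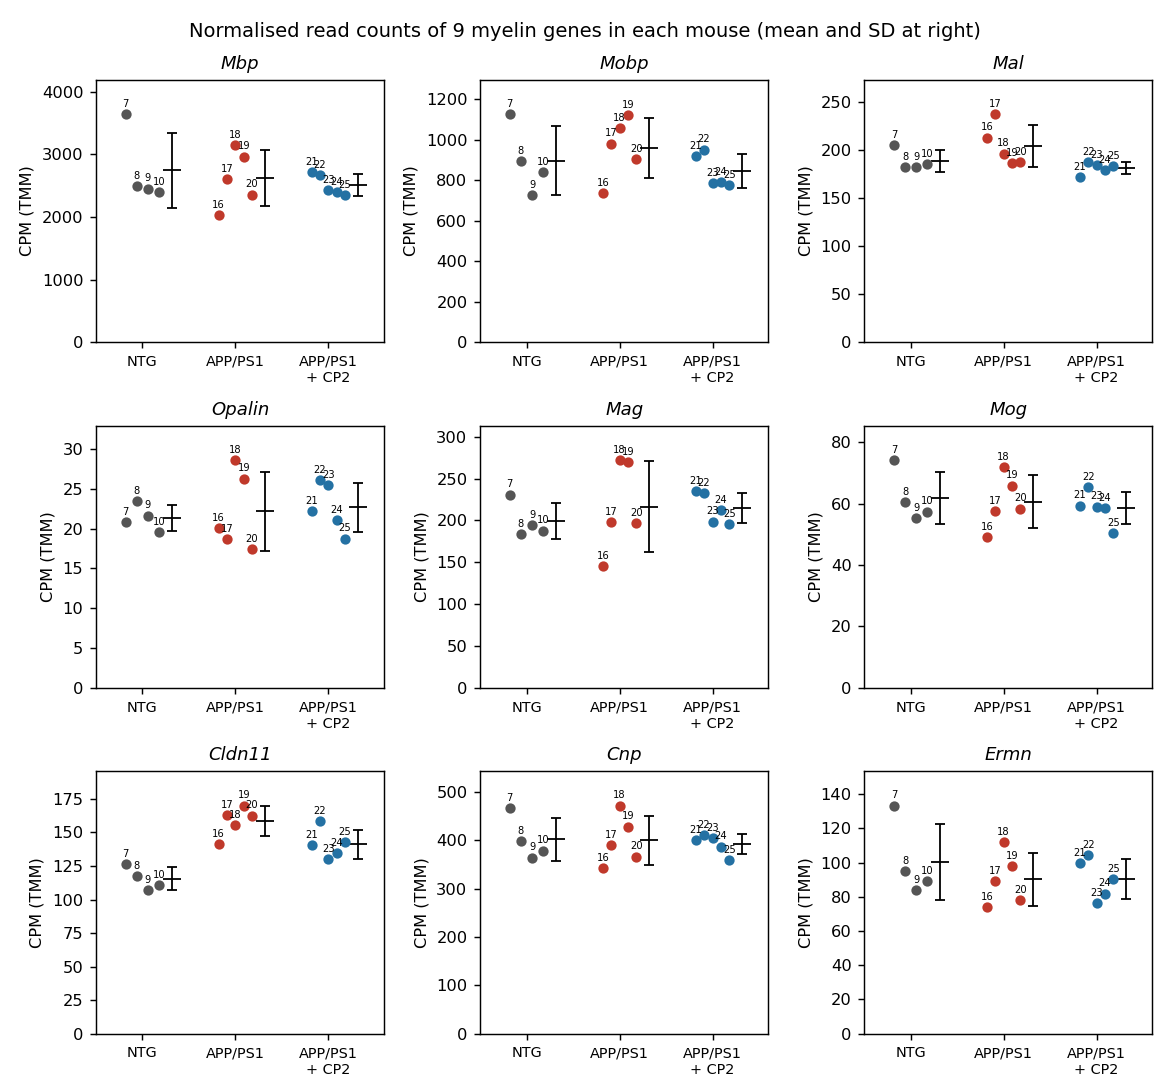
Normalised read counts (TMM-scaled CPM, axes from 0) of each myelin gene in NTG, APP/PS1 and CP2-treated APP/PS1 mice, with the mouse number above each point and the group mean with SD at its right. The 5 APP/PS1 mice lie above all NTG mice in Cldn11 (141 to 170.0 against 107 to 126 CPM), while the groups overlap in the other 8 genes.

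Cldn11 was also set against the other 8 members within each mouse. On the log2 scale, Cldn11 lay below the mean of the other 8 by -1.02 to -0.85 in NTG mice. The same difference was -0.73 to -0.28 in APP/PS1 mice and -0.66 to -0.44 in CP2-treated APP/PS1 mice. NTG mice did not overlap with either group on this measure, which is given as a description since Cldn11 was singled out for its own change. Mouse 7 had the highest Cldn11 and the highest mean of the other 8 members among NTG mice. Mouse 16 had the lowest Cldn11 and the lowest mean of the other 8 members among APP/PS1 mice. Mouse 16 stood apart in its tissue as well: 10 of 10 marker genes of striatum were highest in it, and they summed to 2596 CPM against 208 to 399 CPM in the other 13 mice. Genes of thalamus were lowest there, at 163 CPM against 277 to 546 CPM. Without mouse 16 the log2 fold change of Cldn11 was 0.50, with an adjusted p of 0.000551 (edgeR). Leaving out each of the 9 mice in turn gave values from 0.43 to 0.51, and the call remained each time, with adjusted p between 0.000551 and 0.0164.

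**Figure D3:**
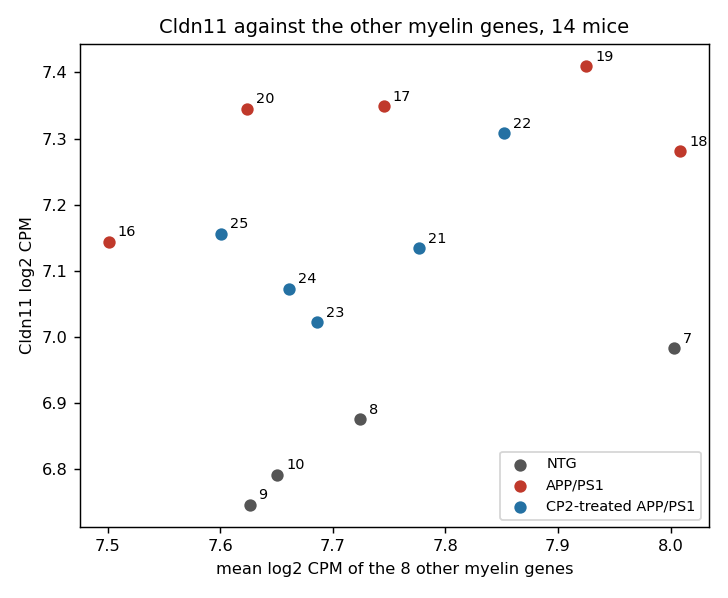
Log2 CPM of Cldn11 (vertical axis) against the mean log2 CPM of the 8 other myelin genes (horizontal axis) in each of 14 mice, labelled by mouse number and coloured by group. NTG mice lie below the mice of both APP/PS1 groups at like values of the other genes, between -1.02 and -0.85 below the mean of the others.

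Cldn11 is also made by barrier cells of the arachnoid, in the meninges. The list of 12 meninges genes was added after the values of Cldn11 had been seen, and 0 of 12 had an adjusted p under 0.05 in either comparison with NTG mice (edgeR). At an unadjusted p under 0.05 it was 1 of 12 between APP/PS1 and NTG mice, beside 3069 of 16417 genes. Between CP2-treated and NTG mice it was 0 of 12, beside 3312 of 16416 genes. The median log2 fold change of the list was 0.03 and 0.15 in these 2 comparisons, beside -0.0042 and -0.0015 over all genes tested. The groups overlapped in their summed level, which ran from 178 to 263 CPM in NTG mice, 116 to 299 CPM in the untreated and 169 to 325 CPM in the treated APP/PS1 group. Microglia genes moved with the transgenes: 10 of 10 were higher in APP/PS1 than in NTG mice, and their sum of 827 to 1229 CPM there, or 720 to 1047 CPM with CP2, lay above the 443 to 461 CPM of NTG mice. The part of meninges or of microglia in the level of Cldn11 was not tested.

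Further genes of myelin and of oligodendrocytes gave the surroundings of this change. Of 20 other genes of compact myelin, loops and junctions, 1 rose in APP/PS1 mice, beside 4.34% of all genes, and the median log2 fold change was 0.03. This was Cd9, a tetraspanin of the sheath that microglia also make, which averaged 42.1 ± 4.996 CPM in NTG (SD, n = 4) and 90.6 ± 16.01 CPM in APP/PS1 mice (SD, n = 5), a log2 fold change of 1.12 (adjusted p = 0.00146, edgeR). Pmp22 and Cd82 had unadjusted p of 0.0331 and 0.0190 and adjusted p of 0.215 and 0.160 (edgeR), with log2 fold changes of 0.50 and 0.39.

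Among 15 enzymes of myelin lipid synthesis the median log2 fold change was 0.24, and 8 were higher at an unadjusted p under 0.05, beside 10.6% of all genes. Fdft1 of cholesterol synthesis (0.32, adjusted p = 0.0576, edgeR) and Degs1 of ceramide synthesis (0.17, adjusted p = 0.0891, edgeR) were among these 8 and did not pass the adjusted test. These enzymes are also used by neurons and astrocytes.

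None of 24 other markers of mature oligodendrocytes, 12 transcription factors and 9 genes of precursors and new oligodendrocytes passed the adjusted test between APP/PS1 and NTG mice in edgeR. At an unadjusted p under 0.05 there were 5 markers higher, beside 10.6% of all genes. Among them were Gsn (0.56, adjusted p = 0.0772, edgeR), Carns1 (0.33) and Il33 (0.27). There was 1 transcription factor lower, Zfp536 (-0.13), and 1 precursor gene higher, Cspg4 (0.20). By DESeq2 1 of the 24 markers passed, beside 10.2% of all genes, and by limma-voom 4, beside 9.52%. Olig1, Olig2, Sox10 and Myrf, which direct the oligodendrocyte programme, had log2 fold changes of -0.05, -0.0058, 0.04 and 0.15, with adjusted p between 0.561 and 0.985 (edgeR). Of 4 genes known to rise in oligodendrocytes of amyloid models, Serpina3n and C4b rose, by log2 fold changes of 2.17 and 1.63, with adjusted p of 0.00408 and 0.00570 (edgeR). Both are also made by astrocytes. Il33 and Klk6, the other 2, had adjusted p of 0.193 and 0.528 (edgeR).

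CP2-treated APP/PS1 mice were compared with APP/PS1 mice to ask what the compound changed in the presence of the transgenes. By the adjusted test 0 of 9 members differed (edgeR, and also DESeq2 and limma-voom), in a comparison where 1 gene of 16407, or 0.00609%, was called. At an unadjusted p under 0.05, Mal and Cldn11 were lower in treated mice, 2 of 9 members beside 6.55% of all genes, of which 3.66% were lower. Mal was 172, 187, 184, 179 and 184 CPM in CP2-treated mice 21 to 25, beside 187 to 238 CPM in APP/PS1 mice. The groups met at 187 CPM, and the log2 fold change was -0.17 (SE 0.065, unadjusted p = 0.0221, adjusted p = 0.744, edgeR), with a 95% interval from -19.6 to -2.05%. Cldn11 was 140.4, 158, 129.9, 135 and 143 CPM in CP2-treated mice, and mouse 22 alone reached the middle of the APP/PS1 values. Its log2 fold change was -0.17 (SE 0.065, unadjusted p = 0.0266, adjusted p = 0.744, edgeR), with a 95% interval from -19.3 to -1.59%. The 2 comparisons share the APP/PS1 mice, so that a high value in these mice appears in both, and the values are only set side by side: Cldn11 averaged 115, 158 and 141 CPM in the NTG, APP/PS1 and CP2-treated groups, and Mal 189, 204 and 181 CPM.

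The remaining 7 members had no unadjusted p under 0.05. Mobp nonetheless had the lowest fold change of the 9 and a wide spread, 961 ± 149 CPM (SD, n = 5) in APP/PS1 and 845 ± 83.8 CPM (SD, n = 5) in CP2-treated mice, a log2 fold change of -0.18 (SE 0.11, adjusted p = 0.757, edgeR). Without mouse 16 it was -0.26 with an unadjusted p of 0.00943 and an adjusted p of 0.463 (edgeR). Then 3 of 9 members had an unadjusted p under 0.05, beside 1575 of 16503 genes, against 1074 of 16407 genes with all mice. Mbp was 2722, 2672, 2433, 2392 and 2346 CPM in CP2-treated mice, within the range of APP/PS1 mice. Mag was 235, 233, 198, 212 and 196 CPM, and Cnp spanned 359 to 411 CPM. Mog, Opalin and Ermn spanned 50.5 to 65.3, 18.7 to 26.0 and 76.1 to 104 CPM. Log2 fold changes of these 6 genes lay between -0.06 (Mbp) and 0.03 (Opalin), and their 95% intervals reached from -21.2% at the lowest to 27.5% at the highest. The median of the 9 members was -0.05, beside -0.0060 over all genes.

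**Figure D4:**
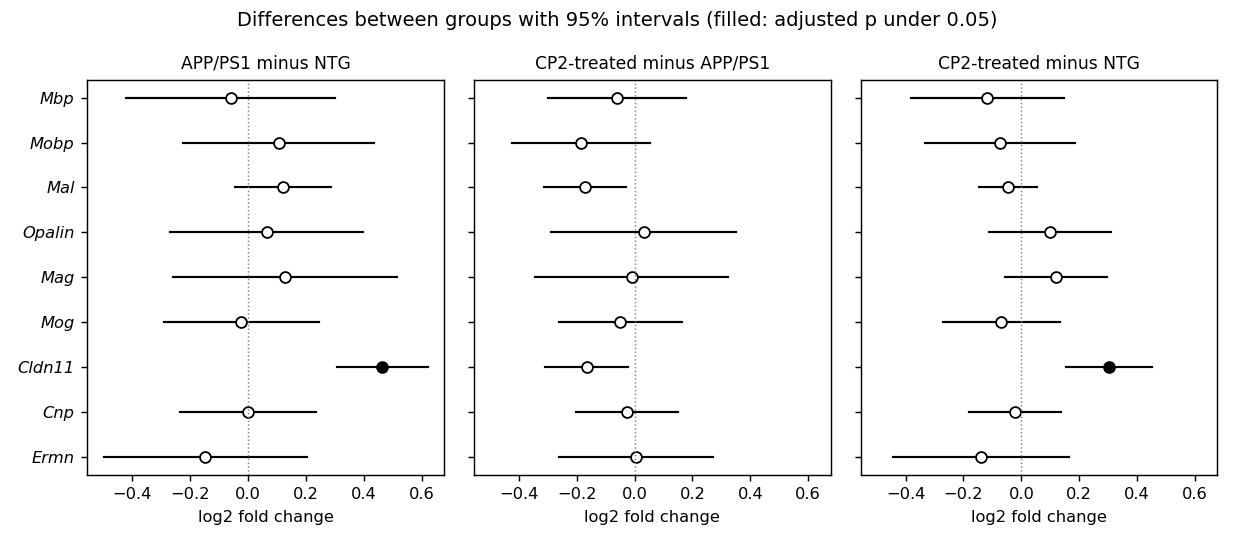
Log2 fold changes of the 9 myelin genes between APP/PS1 and NTG, CP2-treated and APP/PS1, and CP2-treated and NTG mice, with 95% intervals from the edgeR fits and a filled symbol where the adjusted p was under 0.05. Cldn11 is filled in both panels that hold a comparison with NTG mice (0.46 and 0.30), and no member is filled in the middle panel.

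None of the other oligodendrocyte lists held a called gene between CP2-treated and untreated APP/PS1 mice in edgeR. Of all genes, 6.55% had an unadjusted p under 0.05. In the list of compact myelin, loops and junctions it was 1 gene of 20, Gjc3, a connexin, with a log2 fold change of 0.19. There was 1 of 15 lipid enzymes, Degs1 (-0.13), and 1 of 24 markers, Apod, a lipid-carrying lipocalin. Apod was at 274 ± 82.9 CPM in untreated and 178 ± 34.6 CPM in treated mice (SD, n = 5 each), with an adjusted p of 0.744 (edgeR). In lists of 15 to 24 genes, 1 gene each is near the share of all genes. No transcription factor or precursor gene had an unadjusted p under 0.05. All 4 genes known to rise in oligodendrocytes of amyloid models had log2 fold changes below 0, from -0.63 to -0.14, and 1 had an unadjusted p under 0.05: Serpina3n, at 137 ± 48.1 CPM in untreated and 88.4 ± 25.3 CPM in treated mice (SD, n = 5 each, unadjusted p = 0.0447, adjusted p = 0.744, edgeR). Tcf7l2 was higher in all CP2-treated than in all APP/PS1 mice, at 42.2 ± 2.88 against 28.0 ± 12.8 CPM (SD, n = 5 each), beside 1.14% of all genes without overlap. It was 5.33 CPM in mouse 16 and 31.8 to 35.6 CPM in the other 4 APP/PS1 mice, and it is also a gene of thalamic neurons, whose markers were lowest in mouse 16. Its adjusted p was 0.763 (edgeR).

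CP2-treated APP/PS1 mice were also compared with NTG mice, to see which myelin transcripts still differed under treatment. Cldn11 was higher in treated mice by a log2 fold change of 0.30 (SE 0.068, adjusted p = 0.0247, edgeR), or 23.3% with a 95% interval from 11.2 to 36.7%. The lowest treated mouse, at 129.9 CPM, stood above the highest NTG mouse, at 126 CPM. It was 1 of 9 members called, beside 6.02% of all genes in either direction and 4.56% higher, and 1 of 9 without overlap, beside 9.61%. The call was lost when mouse 8, 9, 10, 21 or 25 was left out, with adjusted p of 0.0568, 0.0820, 0.0768, 0.0583 and 0.0502 (edgeR). The other 8 members had log2 fold changes between -0.14 (Ermn) and 0.12 (Mag), with adjusted p from 0.446 to 0.903 (edgeR). The most closely bounded was Mal, with a 95% interval from -9.68 to 3.93%.

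Several genes around myelin differed between CP2-treated and NTG mice. Cd9 was 75.5 ± 14.8 CPM (SD, n = 5) in treated mice, a log2 fold change of 0.86 over NTG mice (adjusted p = 0.00410, edgeR). Trf, the transferrin that oligodendrocytes make, was higher at 479 ± 35.3 CPM in treated (SD, n = 5) than in NTG mice at 350 ± 57.5 CPM (SD, n = 4), with an adjusted p of 0.0206 (edgeR). Of the 24 markers it was the 1 called, and it was named after its value was seen. None was called without mouse 8, 9, 10, 21 or 24 or in the fit of all 3 groups, and 4 were without mouse 7. Of the 15 lipid enzymes, 5 were called higher, beside 4.56% of all genes. Among these were Sqle, Hmgcs1 and Fdft1 of cholesterol synthesis. Their log2 fold changes were 0.33, 0.27 and 0.22, with adjusted p of 0.000688, 0.00557 and 0.0112 (edgeR). Between CP2-treated and untreated APP/PS1 mice, these 3 enzymes had no unadjusted p under 0.05.

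Within groups, most members varied together from mouse to mouse. After each value was set against its group mean on the log2 scale, the 15 pairs among Mbp, Mog, Mag, Mobp, Cnp and Ermn had Pearson's r between 0.78 and 0.96 over 14 mice. All 15 of these pairs had an adjusted p under 0.05 by Pearson's r and by Spearman's rho (permutation test within groups, 100000 draws, two-sided, Benjamini-Hochberg over 36 pairs). The closest pair was Mog and Cnp, with r = 0.96 and rho = 0.96 (adjusted permutation p = 0.00072 for each), and r = 0.94 without mice 7 and 16. Left without the 2 mice farthest from the median, the 15 pairs kept r between 0.68 and 0.94. The members of a mouse share its library and its scaling factor.

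Cldn11, Opalin and Mal followed this pattern less closely. Cldn11 had r between 0.10 (Mal) and 0.83 (Mobp) with the other 8 members, with 4 of 8 pairs past the adjusted test by Pearson's r and 2 by Spearman's rho. Opalin had r between -0.28 and 0.68, with 1 of 8 pairs past the test by Pearson's r and 2 by Spearman's rho. Mal had r between -0.29 and 0.14, and 0 of 8 pairs passed by either measure. In mouse 16, Mag was lower than the group mean by -0.53 and Mbp by -0.35 on the log2 scale, while Mal was 0.07 above its group mean. In mouse 17 Mal was highest of all 14 mice, at 238 CPM, while Mbp was 0.01 from its group mean. These 2 mice also had the lowest shares of ribosomal RNA counts (those of Yam1 and AY036118), 2.40% and 2.68%, against 4.01% to 7.504% in the other 12. By group the share was 4.72% to 7.504% in NTG, 2.40% to 5.51% in APP/PS1 and 4.49% to 7.40% in CP2-treated mice. With this share as a covariate, the log2 fold change of Mal between APP/PS1 and NTG mice was -0.0094 in place of 0.12. Between CP2-treated and untreated APP/PS1 mice it was -0.08 (unadjusted p = 0.244, edgeR), which ended its place among genes with an unadjusted p under 0.05. Since the share differed between groups, the covariate also takes up part of the group difference. Ribosomal RNA as a source of the Mal values was not tested.

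**Figure D5:**
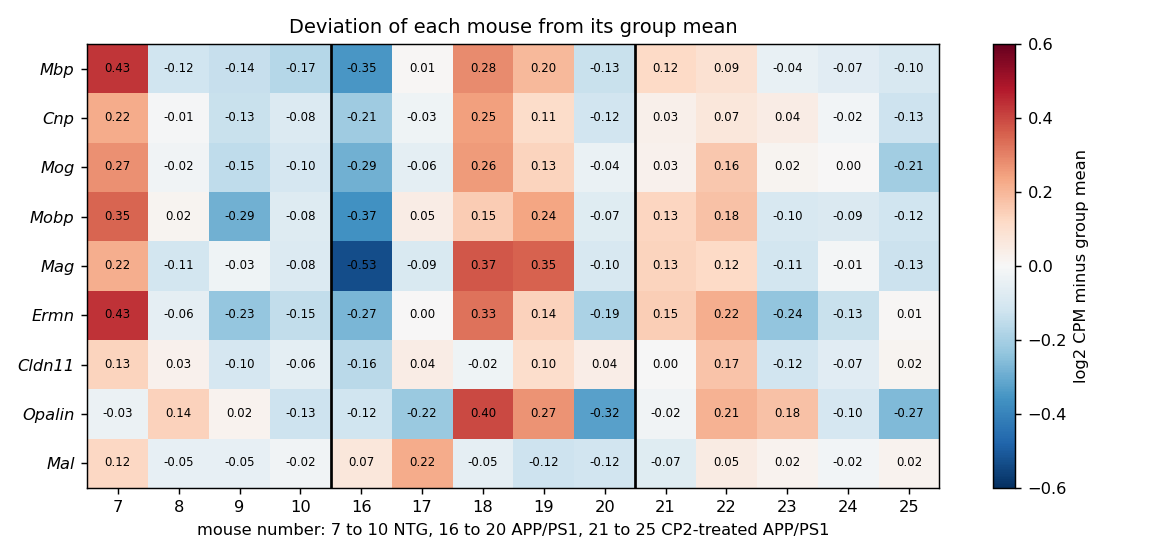
Log2 CPM of each myelin gene minus its group mean, for each mouse, with red above and blue below the mean and vertical lines between groups. Mouse 7 is above and mouse 16 below its group mean in Mbp, Cnp, Mog, Mobp, Mag and Ermn, while Mal in mouse 16 is 0.07 above.

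The same mice set the extremes of several genes. Mouse 7 of the NTG group was highest of all 14 in 4 members and mouse 18 of the APP/PS1 group in 3, while mouse 16 was lowest in 5. The 9 members summed to 6031 CPM in mouse 7 and to 3755 CPM in mouse 16, and the range within NTG mice (4190 to 6031 CPM) covered that of CP2-treated mice (4162 to 4809 CPM) almost whole. Without mouse 7 the median log2 fold change of the members between APP/PS1 and NTG mice was 0.11, and without mouse 18 it was -0.04. The spread was smallest in CP2-treated mice for 7 of 9 members, beside 41.8% of all genes. Most members varied together within groups, so the 9 are not separate observations, and an effect of CP2 on the spread was not tested. For Mbp the SD of log2 CPM was 0.098 in CP2-treated, 0.29 in NTG and 0.25 in APP/PS1 mice. For Mag it was 0.12, 0.15 and 0.38. Cldn11 had the most even spread, 0.10 in NTG, 0.10 in APP/PS1 and 0.11 in CP2-treated mice.

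The 12 genes whose deviations were most like the mean of the 9 members over 14 mice had r from 0.95 to 0.98, given as a description. They were Sec11c, Hsdl2, Serpinb1a, Micu2, Chpt1, Pmp22, Sypl, Plscr1, Ppp1r14a, Fnta, Tmem125 and Lap3. Pmp22 and Tmem125 were among the genes of compact myelin, loops and junctions listed for this comparison, and Ppp1r14a among the markers of mature oligodendrocytes. Sec11c, a subunit of the signal peptidase complex, was first at r = 0.98 and averaged 63.4 CPM, and Chpt1, which makes phosphatidylcholine, had r = 0.96. Without mouse 16, 9 of the 12 were still among the first 12, but only 3 were when values were not set against group means.

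By list, 14 of 24 markers of mature oligodendrocytes, 8 of 15 lipid enzymes and 10 of 20 genes of compact myelin, loops and junctions had r above 0.8 with the mean of the members over 14 mice, beside 4.14% of all genes. Of 9 genes of precursors and new oligodendrocytes it was 0, and their median r was 0.05. Of 12 transcription factors it was 2. Among 12 neuron genes, 0 had r above 0.8 and 4 had r below -0.8, while 3 of 12 meninges genes and 3 of 10 astrocyte genes had r above 0.8. These values describe how levels moved together in bulk tissue of the same libraries, and the cut of the tissue as their source was not tested.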

How the data were processed

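RNA from frozen brain tissue of 14 mice was sequenced with paired ends by the authors from TruSeq v2 libraries. Per the paper's methods, the authors used MAP-RSeq 2.1.1, in which reads were aligned to mm10 with TopHat2 and counted on Ensembl genes with featureCounts, a read counting for each gene it overlapped. The strand setting is not given in the sources used here. The authors deposited read counts per gene without normalization, together with RPKM values they computed from these counts and gene lengths, which served here only to order levels between genes.

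Counts were tested with edgeR 4.0.16 in R 4.3.3 (TMM factors, quasi-likelihood F-test, two-sided, Benjamini-Hochberg adjustment over all genes tested), with only the 2 groups compared in each fit. The filter on low counts kept genes whose robust CPM was above 1 in all mice of 1 group or more, and a gene was called at an adjusted p under 0.05. SE and 95% intervals come from the test statistic. CPM are TMM-scaled, and log2 CPM used a prior count of 2. Intervals and p-values measure the spread between mice. No replicate libraries were identical. DESeq2 1.42.0 and limma 3.58.1 served as alternatives. The script was tested on simulated data.

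The 9 genes and the lists of other genes were chosen with earlier results of these data known, and support nothing on their own. Named genes were the 9 members, Olig1, Olig2, Sox10, Myrf, the 3 genes of smallest unadjusted p per oligodendrocyte list in the comparison of APP/PS1 with NTG mice and in that of CP2-treated with untreated APP/PS1 mice, and the 12 genes most like the members, and a few genes under this rule are not reported here. Called genes of the lists were named after their values were seen where outside this rule. Deviations were compared with Pearson's r and Spearman's rho. The lists for neurons, endothelium, hippocampus, cortex and choroid plexus were summed as well: neuron genes had 0 of 12 called between APP/PS1 and NTG mice, endothelium 1 of 8, hippocampus 1 of 8, cortex 0 of 9, choroid plexus 0 of 5 tested and astrocytes 2 of 10.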

Additional observations from a re-analysis of the deposited data

Results flagged for a closer look

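A single NTG mouse, number 7, lay far from the other 3 of its group in 2 myelin genes. Its Mbp was 3646 CPM, with the other NTG mice between 2401 and 2488 CPM. Its Mal was 205 CPM, with the others between 182 and 185 CPM. In both genes the gap to the nearest mouse exceeded the 95% critical value of Dixon's test for 4 samples, the gap divided by the range of the group being 0.930 and 0.842. The test was made on 27 groups, 9 genes in 3 groups of mice, and chance flags about 1 group in 20.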

How the results depend on the processing

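The higher level of Cldn11 in APP/PS1 than in NTG mice kept its direction and its call under all 8 other settings and without each of the 9 mice. Those settings were limma-voom with quality weights, a covariate for ribosomal RNA, a single fit of the 3 groups, DESeq2, scaling by RLE or by the upper quartile, and a filter that was left out or that asked for 10 counts per mouse. With 4 or 5 mice a group, differences inside the intervals of the report were not detectable. Of 468 values of single members under alternatives, 51 changed sign, all of members without a call, and 5 lost a call, all of Cldn11 between CP2-treated and NTG mice. The count of members called between CP2-treated and NTG mice, 1, was 0 to 1 when single mice were left out, and it was 0 without mouse 8, 9, 10, 21 or 25. No paired analysis was possible because the groups share no replicate numbers.

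Members with an unadjusted p under 0.05 between CP2-treated and untreated APP/PS1 mice, 2 in number, were 1 with the ribosomal RNA share as a covariate and 1 to 3 when single mice were left out: 3 without mouse 16, and 1 without mouse 19, 20, 21, 23 or 24. Over all genes tested it was 1074 in the main fit and 727 with the covariate, of 16407 each. When single mice were left out it was from 642 (without mouse 24) to 1575 (without mouse 16). Between CP2-treated and NTG mice there was 1, which became 2 with limma-voom and 1 to 2 when single mice were left out (2 without mouse 7, the second being Mag). Of all 16416 genes tested in this comparison, 3312 had an unadjusted p under 0.05 in the main fit and 3752 with limma-voom. Without mouse 7 it was 3433 of 16445 genes.

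After a change of sign, log2 fold changes lay between -0.073 and 0.11, so the direction of these uncalled members was not settled. Between APP/PS1 and NTG mice, the log2 fold change of Cnp was -0.00090 with DESeq2, -0.00090 with RLE factors, -0.00063 with a minimum of 10 counts and -0.0095 without a filter. With limma-voom Mbp was 0.072 and Mog 0.068. With the ribosomal RNA share as a covariate Mbp was 0.0011, Mog 0.079 and Mal -0.0094. When single mice were left out, Mbp ran from -0.13 to 0.11, Mog from -0.090 to 0.078, Ermn from -0.23 to 0.022, Cnp from -0.064 to 0.081 and Opalin from -0.043 to 0.14.

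Between CP2-treated and untreated APP/PS1 mice, Ermn was -0.00026 with upper-quartile factors and -0.013 with limma-voom, and Opalin was -0.073 with the covariate. When single mice were left out, Opalin ran from -0.043 to 0.14, Ermn from -0.058 to 0.091, Mbp from -0.14 to 0.0099, Mog from -0.11 to 0.016, Mag from -0.12 to 0.086 and Cnp from -0.076 to 0.036. Between CP2-treated and NTG mice, limma-voom gave 0.00084 for Mog, 0.030 for Mobp and 0.032 for Cnp. When single mice were left out, Mbp ran from -0.19 to 0.051, Mog from -0.12 to 0.033, Mobp from -0.16 to 0.057, Cnp from -0.068 to 0.058 and Ermn from -0.22 to 0.031. Called genes of compact myelin, loops and junctions between APP/PS1 and NTG mice, 1 in number, were 3 with limma-voom. Of all genes, 5.68% were called in the main fit and 9.52% with limma-voom. The cause of these shifts was not tested.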
